A study of Mus musculus with 24 samples.

Results

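A set of 10 genes whose proteins help to hold axon and myelin together at paranode, node and internode was followed in all 24 libraries of a mouse spinal cord contusion study. They were Nfasc, Cntn1, Cntn2, Cntnap1, Cntnap2, Ank3, Nrcam, Gldn, Cadm4 and Jam3. The genes were chosen by symbol for these roles, not by a threshold on their values. All 10 were among the 21965 genes of the count table and all 10 passed the filter on low counts, which 17167 genes passed. The mice (OL-Ribotag, labelled plp-cre;rpl22HA) carried a tamoxifen-inducible Cre and an Rpl22 allele that gains an HA tag after recombination. RNA on tagged ribosomes was pulled down with an anti-HA antibody (OL libraries) and 10% of the cleared lysate was kept as total cord RNA. Tissue came from uninjured tamoxifen-treated mice (naive) and from tamoxifen-treated mice at dpi 2, dpi 10 or dpi 42 (days post-injury) after a 50 kdyn contusion at T9, in females that the labels give as 10 to 12 weeks old at injury (the study's methods give a younger range). The naive tissue was taken alongside that of dpi 42, so naive mice were matched in age to dpi 42 only, and for the 2 earlier days age and injury cannot be told apart. Each of the 4 groups had 3 tissue pools of 2 mice, and every pool gave 1 OL and 1 total RNA library. The Cre driver is also active in Schwann cells, so the tag is not exclusive to oligodendrocytes (OLs).

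At the node of Ranvier, sodium channels of the axon are clustered by Ank3 (ankyrin G) and by adhesion molecules such as Nrcam and the neuronal form of neurofascin. At the flanking paranode, the glial form of neurofascin on the myelin loops binds a complex of contactin 1 (Cntn1) and Caspr (Cntnap1) on the axon. In the neighbouring juxtaparanode, Cntn2 on glia and axon holds Caspr2 (Cntnap2) and potassium channels, while Cadm4 of glia lies along the internode and Jam3 is an adhesion molecule of junctions between membranes. Gldn (gliomedin) is secreted by Schwann cells and gathers nodal proteins at peripheral nodes. Gene counts merge the glial and neuronal forms of Nfasc and the long and short forms of Ank3.

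Totals were 29075211 to 32987841 counts in OL and 25840127 to 29050061 in total RNA libraries. By these totals alone, 3 counts equal 0.0909 to 0.116 CPM (counts scaled to library size). The other CPM given here also carry TMM scaling, so this range is not on their scale. Mature OL markers (8 genes, summed) stood at 92613 to 162180 CPM in OL and 18746 to 28011 in total RNA libraries, in keeping with the OL label. The sample titles and descriptions of 2 dpi 42 libraries conflict, and the descriptions and column names were followed, by which dpi 42 OL library 1 shares its tissue with total RNA library 2 and OL library 2 with total RNA library 1. Both libraries of dpi 2 pool 2 held counts on 4 Y-linked genes (2414 in OL and 2604 in total RNA, against 0 to 13 in the other libraries), although the mice were labelled female. The OL library of naive pool 3 held Schwann cell markers (9 genes) at a sum of 660.5 CPM, where the other naive OL libraries held 1.69 and 2.23, and astrocyte markers (7 genes) at 8498 against 1304 and 1464. The total RNA of that pool held the Schwann markers at 185 CPM against 4.16 and 4.43. Calls that change without either pool are given beside the result.

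RefSeq promoters (GRCm38.p6, 250 bases before to 50 after a start site) matched 7 of the 10 genes, with 11 entries; Cntnap1, Ank3 and Jam3 had none. Those of Cntn2, Cadm4 and Gldn are shown to base 30 after the start because their log2 changes in OL libraries after injury differed in sign and size. Capitals mark the letters of a SOX core (ACAAAG or ACAATG) or an E-box (CANNTG), each searched on both strands and counted separately where they overlap. Cntn2 lies at chr1:132542911-132543190 on the minus strand, Cadm4 at chr7:24481773-24482052 and Gldn at chr9:54286236-54286515, both on the plus strand.
Cntn2: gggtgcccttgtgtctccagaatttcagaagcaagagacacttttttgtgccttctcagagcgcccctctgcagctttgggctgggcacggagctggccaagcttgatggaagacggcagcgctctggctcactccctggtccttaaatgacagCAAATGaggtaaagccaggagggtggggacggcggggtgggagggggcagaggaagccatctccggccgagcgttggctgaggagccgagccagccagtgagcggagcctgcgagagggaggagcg
Cadm4: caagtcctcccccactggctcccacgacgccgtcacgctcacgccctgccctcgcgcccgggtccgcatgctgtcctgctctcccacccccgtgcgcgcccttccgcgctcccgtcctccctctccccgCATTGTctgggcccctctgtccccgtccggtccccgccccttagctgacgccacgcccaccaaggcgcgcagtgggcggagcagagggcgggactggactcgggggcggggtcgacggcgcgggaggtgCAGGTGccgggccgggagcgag
Gldn: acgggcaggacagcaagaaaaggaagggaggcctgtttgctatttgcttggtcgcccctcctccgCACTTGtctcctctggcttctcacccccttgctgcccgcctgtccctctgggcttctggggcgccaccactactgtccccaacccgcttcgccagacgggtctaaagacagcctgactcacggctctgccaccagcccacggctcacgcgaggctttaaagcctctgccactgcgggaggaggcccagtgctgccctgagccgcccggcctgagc
Cadm4 held 1 SOX core and 1 E-box, and Cntn2 and Gldn 1 E-box each with no SOX core. Of 32851 mouse promoters of the same 300 bases, 28.6% held a SOX core and 72.3% an E-box. A match is a description of these letters, and its absence says only that they are not in this window.

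In naive OL libraries, Cadm4 had the highest level per length of the 10 genes at 458 ± 30.9 CPM per kb of exon (SD, n = 3). Cntn2 followed at 319 ± 55.2, Jam3 at 134 ± 29.2 and Nfasc at 122 ± 7.43 CPM per kb, the last 2 within their spread of each other. Cntn1 at 19.3 ± 21.6, Ank3 at 17.01 ± 2.16 and Nrcam at 5.48 ± 6.85 CPM per kb overlapped, and Cntnap1 (3.12 ± 0.159), Cntnap2 (0.600 ± 0.165) and Gldn (0.157 ± 0.256) lay lowest. The places of Cntn1 and Nrcam rest on naive OL library 3, without which Cntn1 was at 6.80 CPM per kb, under Ank3 at 18.3, and Nrcam at 1.52, under Cntnap1 at 3.17 (mean of 2 libraries). In naive total RNA the order differed, with Cadm4 at 164 ± 4.38, Cntn1 at 54.7 ± 0.956, Cntnap1 at 45.8 ± 1.74, Cntn2 at 44.7 ± 3.92 and Nfasc at 40.9 ± 1.35 CPM per kb.

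**Figure D1:**
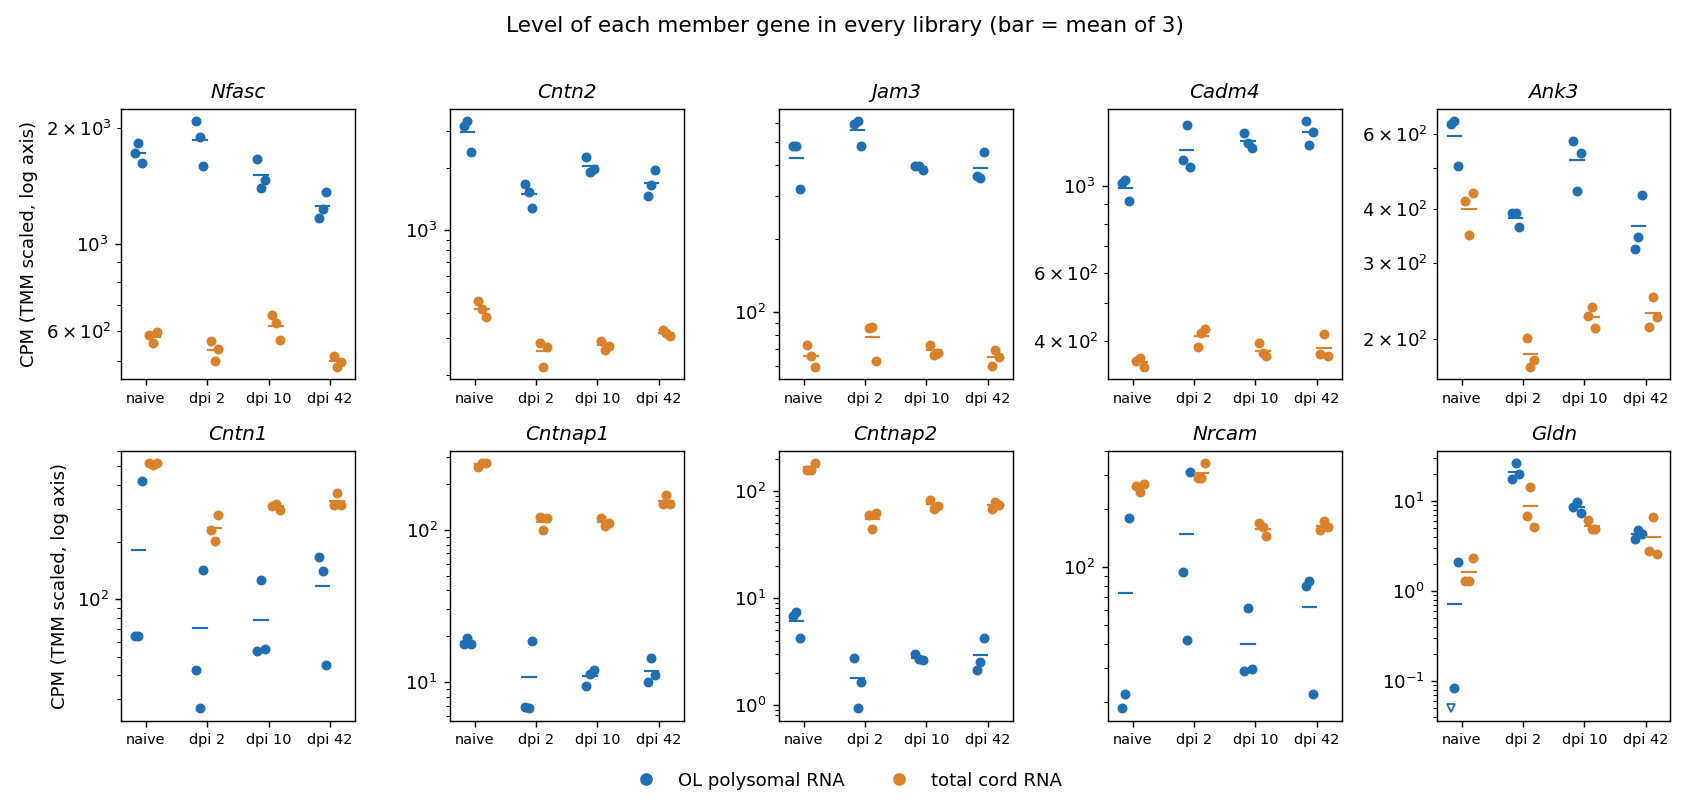
TMM-scaled CPM (log axis) of each gene in the 3 OL (blue) and 3 total RNA (orange) libraries of each group, with the mean as a bar; the open triangle is a library at 0. Nfasc, Cntn2, Jam3, Cadm4 and Ank3 lay higher in OL than in total RNA libraries of the same group, whereas Cntn1, Cntnap1 and Cntnap2 lay lower, and Gldn rose from 0 to 2.10 CPM in naive OL libraries to 17.5 to 26.6 on dpi 2.

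The first comparison asked which of these mRNAs are carried by OL ribosomes: OL libraries set against total RNA from the matching pool. A gene was called at an adjusted p (q) under 0.05 and a log2 fold change past 0.5. In naive tissue 5 of 10 genes were called higher and 5 lower, beside 21.3% higher and 27.2% lower of all genes tested. On dpi 2 it was 5 higher and 3 lower (20.1% and 25.2% of all genes), on dpi 10 it was 5 and 4 (20.9% and 24.9%), and on dpi 42 it was 5 and 4 (20.6% and 24.9%). The 5 enriched genes were Nfasc, Cntn2, Cadm4, Jam3 and Ank3 in every group. Because TMM left the median gene at -0.32 in naive tissue and at -0.24 in each of the other 3 groups, enrichment is relative to that centre.

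Among the glial members, Cntn2 was enriched most in naive tissue, 7.08-fold (log2 2.82, SE 0.12), and stayed 5.24- to 7.30-fold enriched after injury. Jam3 was enriched 6.39-fold in naive tissue (log2 2.68, SE 0.10) and 5.66- to 7.17-fold after injury. Nfasc showed log2 1.57 (SE 0.09) in naive tissue, then 1.79, 1.29 and 1.33 at the successive days, and Cadm4 showed 1.48 (SE 0.08), then 1.58, 1.78 and 1.84. For these 4 genes all OL libraries lay above all total RNA libraries in every group. The scaffold Ank3 was enriched less, by log2 0.56 (SE 0.14) in naive tissue and by 1.06, 1.203 and 0.67 at the successive days. The naive call for Ank3 was lost with size factors of DESeq2 (0.50) and with library sizes alone (0.049), and without either library of naive pool 2 (0.40). Library sizes alone shifted every enrichment by log2 -0.58 to -0.50, and Ank3 was then at 0.49 on dpi 2 and 0.17 on dpi 42, neither called.

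The axonal partners were depleted. Caspr2 (Cntnap2) was 27.5-fold lower in OL than in total RNA of naive tissue (log2 -4.78, SE 0.26, q = 6.4e-09) and 25.6- to 32.4-fold lower after injury. Caspr (Cntnap1) was 14.7-fold lower in naive tissue (log2 -3.88, SE 0.24, q = 2.0e-08) and 10.3- to 13.2-fold lower after injury. Neuron markers behaved alike: 7 of 7 were called lower in naive tissue, with a median log2 of -4.13 (median of all genes -0.32). Cntnap1 overlaps Plekhh3 and Ccr10 on the opposite strand, and the strand setting of the counting is not given in the sources used here.

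Contactin 1 was depleted by log2 -2.16 (SE 0.56, q = 0.0055) in naive tissue and by -2.12, -2.10 and -1.67 at the successive days. Without naive pool 3 the naive value of Cntn1 was -3.001 (q = 0.000168). The call was lost in naive tissue without pool 1 (-1.65) or pool 2 (-1.66), on dpi 2 without pool 2 (-1.70, q = 0.0515) and on dpi 42 without pool 3 (-1.14, q = 0.138 without its OL library). Nrcam was depleted by -2.68 (SE 0.67, q = 0.0041), -2.07 and -1.60 in naive, dpi 10 and dpi 42 tissue, while its -1.52 on dpi 2 had q = 0.057. That dpi 2 value was called with library sizes alone (-2.09, q = 0.0194), with the DESeq2 Wald test (q = 0.0294), with only the groups compared in the fit (q = 0.0329), without naive pool 3 (q = 0.0138) and in 7 of the 24 fits that left out 1 library. Without naive pool 3 the naive depletion of Nrcam was -3.65 (q = 0.000159). The naive call for Nrcam was lost without OL library 1 (-2.01, q = 0.0505) and the dpi 10 call without pool 1 (-1.83) or pool 3 (-1.96). The dpi 42 call was lost in 13 of the 24 fits that left out 1 library, and without OL library 3 it was -1.001 (q = 0.259). That dpi 42 call was also lost without the tissue pool as a block (-1.40, q = 0.0903). Gldn was called depleted in naive tissue (-2.28, SE 0.79, q = 0.027), although OL library 3 held it at 2.10 CPM, above the total RNA libraries of pools 1 and 2 at 1.31 and 1.29. Without a library of naive pool 1 or pool 2 the depletion of Gldn had q = 0.135 to 0.161, and without pool 3 it was -4.84 (q = 0.000228). The naive call for Gldn was also lost with only the groups compared in the fit (-2.71, q = 0.161). Without the tissue pool as a block it was lost too, at -1.15 (q = 0.214). After injury Gldn stood at log2 1.39 (q = 0.075), 0.70 (q = 0.36) and 0.23 (q = 0.79), none of which was called. Without naive pool 3 the dpi 2 value was called (1.39, q = 0.00985). It was also called with the DESeq2 Wald test (1.34, q = 0.0458) and in 4 of the 24 fits that left out 1 library. With only the groups compared in the fit, the values of dpi 2 (1.39, q = 0.00638) and dpi 10 (0.77, q = 0.0302) were called.

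**Figure D2:**
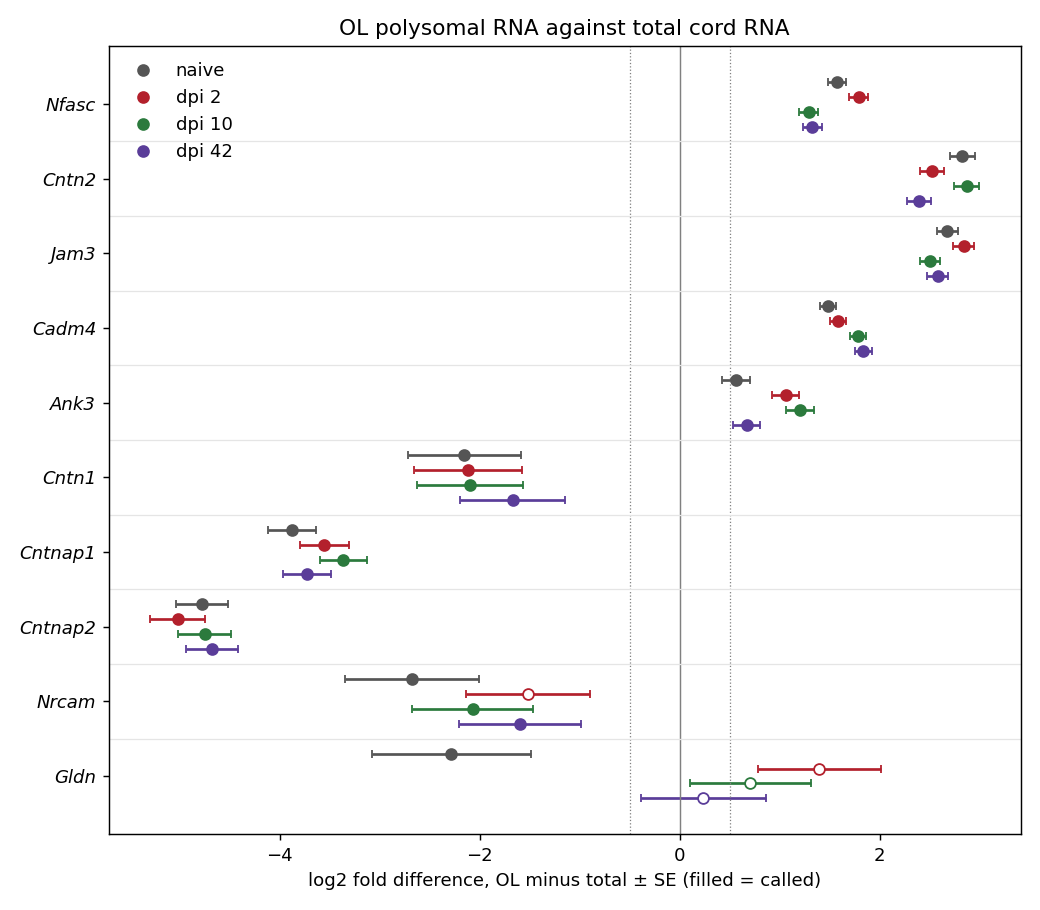
Log2 fold difference between the OL and total RNA libraries of a tissue pool (x axis, with its SE) for each gene and group, filled where called; dotted lines mark 0.5 in either direction. Nfasc, Cntn2, Jam3, Cadm4 and Ank3 sit right of 0.5 in the 4 groups, Cntn1, Cntnap1 and Cntnap2 left of it, and Gldn moves from -2.28 in naive tissue to 1.39 on dpi 2.

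The second comparison asked how levels in OL libraries changed after injury. On dpi 2 Gldn was called higher and Cntn2, Cntnap1, Cntnap2 and Ank3 lower, that is 1 of 10 genes higher and 4 lower, beside 15.9% and 16.4% of all genes tested. On dpi 10 Gldn was higher and Cntn2, Cntnap1 and Cntnap2 lower (1 and 3 of 10, beside 8.55% and 5.55%). On dpi 42 Gldn was higher and Cntn2, Cntnap2 and Ank3 lower (1 and 3 of 10, beside 13.7% and 13%). The median log2 change of the 10 genes was -0.26, -0.37 and -0.54 on the 3 days, where that of all genes was 0. In bulk samples, fewer cells of a type and less RNA per cell cannot be told apart.

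Cntn2, the juxtaparanodal adhesion molecule, stood at 3184, 3342 and 2384 CPM in naive OL libraries. It fell to 1675, 1523 and 1275 CPM by dpi 2, was at 2238, 1897 and 1962 CPM by dpi 10, and at 1461, 1642 and 1946 CPM by dpi 42. Every library after injury lay below every naive library, and naive pool 3 was the lowest of the naive libraries. The log2 change was -0.99 (SE 0.14, q = 6.6e-06) on dpi 2, -0.55 (SE 0.14, q = 0.0073) on dpi 10 and -0.82 (SE 0.14, q = 1.0e-04) on dpi 42. The dpi 10 change lay close to the fold limit and dropped inside it with library sizes alone (-0.43) and without naive OL library 1 (-0.49), naive OL library 2 (-0.45) or dpi 10 OL library 2 (-0.50). The OL reference genes Mbp, Mag and Mog were not called on dpi 2 (log2 -0.25, -0.08 and -0.12).

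Its axonal partner Cntnap2 was low in OL libraries, at 6.77, 7.45 and 4.25 CPM in naive tissue. On dpi 2 it stood at 2.76, 0.932 and 1.65 CPM, on dpi 10 at 2.99, 2.70 and 2.63, and on dpi 42 at 2.13, 2.50 and 4.23. Again no library after injury reached the naive range, the closest being the 4.23 CPM of dpi 42 library 3. The log2 change was -1.78 (SE 0.29, q = 4.1e-05), -1.15 (SE 0.27, q = 0.0055) and -1.06 (SE 0.27, q = 0.0048). With only the groups compared in the fit, the dpi 42 call was lost (q = 0.11).

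Ank3 stood at 631, 641 and 506 CPM in naive OL libraries, at 393, 392 and 364 on dpi 2, at 577, 442 and 540 on dpi 10 and at 324, 345 and 432 on dpi 42. The dpi 2 and dpi 42 ranges lay below the naive range, and the dpi 10 range overlapped it. The log2 change was -0.63 (SE 0.12, q = 3.8e-04) on dpi 2, -0.19 (q = 0.33) on dpi 10 and -0.69 (SE 0.12, q = 2.2e-04) on dpi 42. With library sizes alone the dpi 2 change of Ank3 was -0.46, inside the fold limit.

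Cntnap1 stood at 17.9, 19.4 and 17.7 CPM in naive OL libraries and at 6.84, 6.72 and 18.7 on dpi 2, so dpi 2 library 3 lay within the naive range. It stood at 9.44, 11.3 and 12.0 CPM on dpi 10 and at 10.0, 14.3 and 11.2 on dpi 42, all below the naive libraries. The log2 changes were -0.77 (SE 0.25, q = 0.019), -0.75 (SE 0.25, q = 0.042) and -0.63 (q = 0.058). The dpi 2 call was lost without dpi 2 OL library 1 (-0.53, q = 0.111) or library 2 (-0.52, q = 0.112), without naive OL library 2 (-0.73, q = 0.0544), and without both libraries of dpi 2 pool 2 (-0.52, q = 0.118), whereas without dpi 2 OL library 3 it was -1.43. The dpi 42 change was called without any 1 of the dpi 2 OL libraries (-0.63) or without dpi 42 OL library 2 (-0.79). The dpi 10 call for Cntnap1 was lost in 15 of the 24 fits that left out 1 library (q up to 0.139) and without naive pool 3 (-0.77, q = 0.0655). It was also lost with size factors of DESeq2 (-0.72, q = 0.0525), library sizes alone (-0.63, q = 0.114) and TMM against a total RNA library (-0.71, q = 0.0568). Library sizes alone (-0.58, q = 0.0912) and only the groups compared in the fit (-0.70, q = 0.251) lost the dpi 2 call. The DESeq2 Wald test called the dpi 42 change (-0.60, q = 0.0424). Neuron markers (7 genes, summed) moved with Cntnap1, at 472 to 624 CPM in naive OL libraries and at 382, 347 and 617.5 CPM in dpi 2 libraries 1, 2 and 3, the last being the library with Cntnap1 in the naive range. They stood at 338 to 430.5 CPM on dpi 10 and 292 to 448 on dpi 42, with none of the 7 markers at 0 in any OL library. Of the 7 neuron markers 3, 5 and 4 were called lower in OL libraries at the successive days and 1, 1 and 0 higher, and over the 12 OL libraries the r of log2 Cntnap1 with their log2 sum was 0.73, as a description. Their part in the Cntnap1 values was not tested.

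Gldn was at 0, 0.0846 and 2.10 CPM in naive OL libraries, that is at 0, 2 and 55 counts, so pools 1 and 2 lay under the level of 3 counts. It stood at 17.5, 26.6 and 19.9 CPM on dpi 2, at 8.70, 9.89 and 7.42 on dpi 10, and at 3.78, 4.74 and 4.34 on dpi 42. The groups did not overlap, neither with the naive libraries nor with each other. The fitted change was log2 4.84 (SE 0.82, q = 7.5e-05), 3.54 (SE 0.79, q = 0.0031) and 2.52 (SE 0.77, q = 0.015), and its size depends on naive pool 3, without which it was 8.85, 7.55 and 6.53 against 2 counts in 2 libraries, values that depend on the prior count. Without dpi 2 pool 2 the dpi 2 change was 4.65 (q = 0.0003). The dpi 42 call was lost without naive OL library 2 (2.01, q = 0.0628), and with only the compared groups in the fit the dpi 10 and dpi 42 calls were lost (q = 0.0962 and q = 0.216).

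Cadm4 and Nfasc changed by less than the fold limit in the TMM-scaled edgeR fit of all 24 libraries. Cadm4 stood at 1019, 1037 and 913 CPM in naive OL libraries, at 1167, 1435 and 1120 on dpi 2, at 1367, 1289 and 1249 on dpi 10, and at 1465, 1275 and 1378 on dpi 42, each library after injury above each naive one. Its log2 changes of 0.33 (q = 0.0085), 0.39 (q = 0.0051) and 0.47 (SE 0.09, q = 5.5e-04) were under 0.5. The last was called with size factors of DESeq2 (0.50) and without naive OL library 2 (0.51) or dpi 42 OL library 2 (0.52). It was also called with library sizes alone (0.61), the DESeq2 Wald test (0.50) and only the groups compared in the fit (0.51). Library sizes alone called the dpi 10 change of Cadm4 too (0.51). Nfasc stood at 1715, 1829 and 1619 CPM in naive OL libraries, at 2075, 1888 and 1595 on dpi 2, at 1663, 1399 and 1468 on dpi 10 and at 1167, 1232 and 1367 on dpi 42. Its changes were 0.11 (q = 0.44), -0.19 (q = 0.21) and -0.45 (SE 0.10, q = 0.0013), the last with all dpi 42 libraries below all naive ones and past the fold limit without dpi 42 OL library 3 (-0.52). Jam3 moved by 0.39 (q = 0.044), -0.12 (q = 0.64) and -0.13 (q = 0.55). With library sizes alone the dpi 2 change of Jam3 was called (0.56, q = 0.0019).

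**Figure D3:**
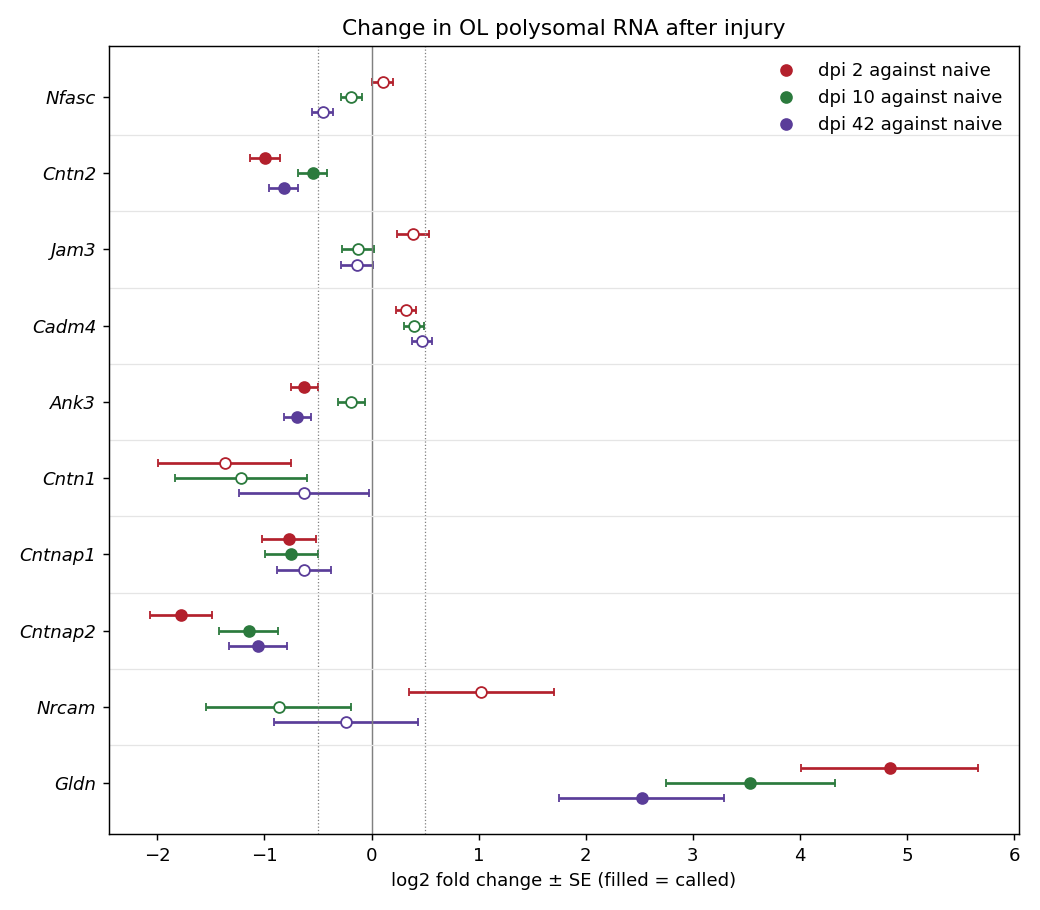
Log2 fold change in OL libraries against naive OL libraries (x axis, with its SE) on dpi 2, 10 and 42, filled where called; dotted lines mark 0.5 in either direction. Cntn2 and Cntnap2 are filled left of -0.5 on the 3 days and Gldn right of 0.5 (4.84, 3.54 and 2.52), while Cntn1 and Nrcam have wide bars and are open on the 3 days.

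Contactin 1 and Nrcam varied widely between OL libraries of 1 group. Cntn1 stood at 64.5, 63.9 and 417 CPM in naive OL libraries, at 42.3, 26.8 and 142 on dpi 2, at 53.8, 126 and 54.8 on dpi 10, and at 166, 141 and 45.4 on dpi 42. The OL libraries that were high in Cntn1 were naive 3, dpi 2 3, dpi 10 2 and dpi 42 1 and 2, the same 5 that held astrocyte markers at 6289 to 12247 CPM, where the other 7 held 950 to 2570. Over the 12 OL libraries the r of log2 Cntn1 with the log2 astrocyte sum was 0.86, as a description of libraries that share pools, time points and scaling. Gja1, the main astrocyte connexin, stood at 71.3, 77.2 and 600 CPM in the naive OL libraries. The changes of Cntn1 were not called (log2 -1.37, -1.22 and -0.63, q = 0.088 to 0.47), and without naive pool 3 they were 0.13, 0.29 and 0.87. The dpi 2 change of Cntn1 was called lower without naive OL library 1 (-1.77) or library 2 (-1.78) or dpi 2 OL library 3 (-2.40).

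Nrcam stood at 18.6, 22.1 and 179 CPM in naive OL libraries, at 94.4, 42.0 and 310 on dpi 2, at 29.1, 61.8 and 29.6 on dpi 10, and at 80.0, 84.3 and 22.1 on dpi 42. Within each group its highest library was one of those high in astrocyte markers (r of 0.75 with their sum over 12 OL libraries). With the mature OL marker sum r was larger in size, at -0.84, also as a description. In dpi 2 library 1 Nrcam was at 94.4 CPM with astrocyte markers at 2570 CPM, so not every raised value went with high astrocyte markers. Nrcam changes were log2 1.02 (q = 0.25), -0.87 (q = 0.43) and -0.24 (q = 0.88). Without naive pool 3 they were 2.87 (q = 0.0011), 0.98 (q = 0.28) and 1.61 (q = 0.041), so 2 calls appeared. The part of astrocyte RNA in these values was not tested.

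For Gldn the matching marker set was that of Schwann cells. The sum of the 9 Schwann markers in OL libraries was 243 to 742 CPM on dpi 2, 920 to 1623 on dpi 10 and 1254 to 1470 on dpi 42, with Prx, a protein of peripheral myelin sheaths, above 0 in each library after injury and at most 1 of 9 markers at 0. Gldn and Schwann markers both separated naive pools 1 and 2 from the rest, but in opposite order after injury, Gldn being highest on dpi 2 and the marker sum on dpi 10 and dpi 42. Naive pool 3 held Schwann markers at 660.5 CPM and Gldn at 2.10 CPM, and dpi 2 library 2 held them at 742 CPM with Gldn at 26.6 CPM. Over the 12 OL libraries r was 0.83 with the Schwann sum, 0.76 with the myeloid sum and 0.75 with the endothelial sum. The part of Schwann cell RNA in the Gldn values was not tested.

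**Figure D4:**
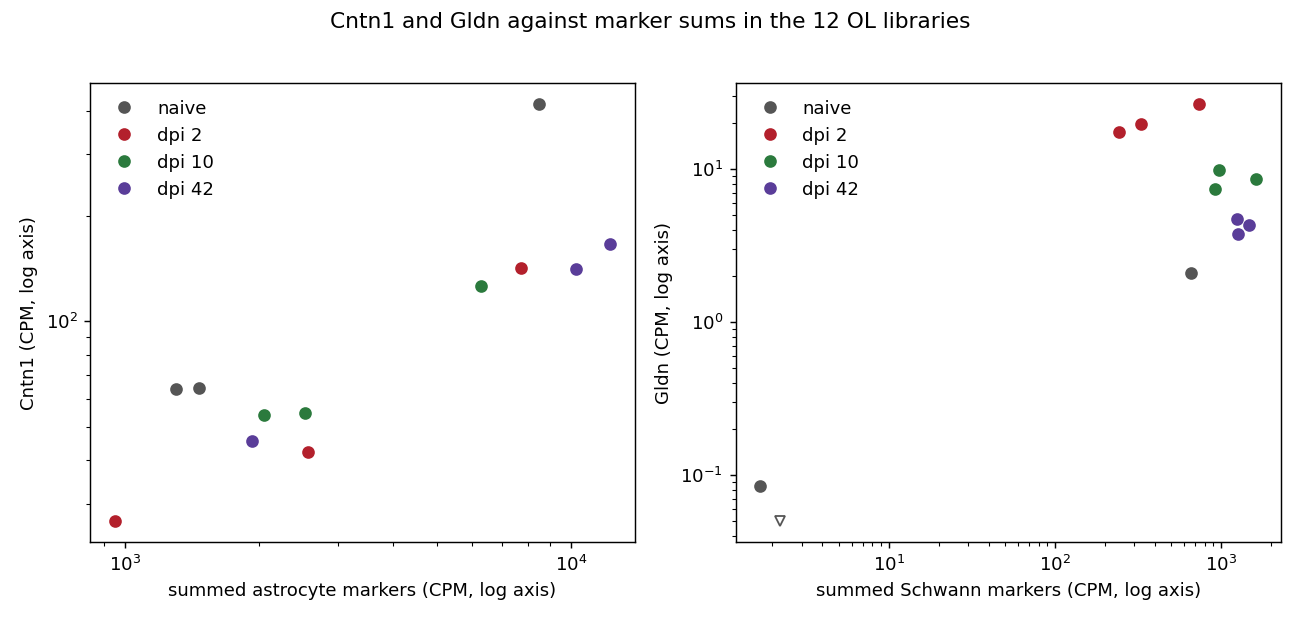
Left, Cntn1 against the summed astrocyte markers; right, Gldn against the summed Schwann markers, both in CPM on log axes, 1 point for each of the 12 OL libraries; the open triangle is a library with Gldn at 0. The 5 libraries with the most astrocyte markers hold the most Cntn1 (126 to 417 CPM), and at Schwann sums of 243 to 742 CPM the dpi 2 libraries hold more Gldn than the dpi 42 libraries at 1254 to 1470 CPM.

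The OL libraries of dpi 42 were also compared with those of dpi 2, which share no mice. No gene was called higher and 3 of 10 lower, beside 7.12% and 6.43% of all genes. Nfasc fell by 0.56 on the log2 scale (SE 0.10, q = 4.4e-04), Gldn by 2.31 (SE 0.71, q = 0.029) and Jam3 by 0.52 (SE 0.15, q = 0.018). Jam3 stood at 591, 607 and 482 CPM on dpi 2 and at 363, 355 and 453 on dpi 42, with no overlap. Without dpi 2 pool 2 Nfasc alone was called, Gldn had q = 0.0755 and Jam3 was at -0.46 (q = 0.0726). Without dpi 2 OL library 1 Nfasc was at -0.47, without any 1 of 4 libraries of the compared groups Gldn lost its call, and the same held for Jam3. Cntnap1 was called higher without dpi 2 OL library 3 (0.80) and Cntnap2 without dpi 2 OL library 1 (1.18). The other members, Cntn2 included (0.18, q = 0.42), showed no call in this comparison, at q = 0.099 or more.

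In total cord RNA Cntn2, Cntnap1, Cntnap2 and Ank3 were called lower at both earlier days, whereas the dpi 42 calls were Cntnap1, Cntnap2 and Ank3. On dpi 2 this was 4 of 10 genes lower and 1, Gldn, higher, beside 17% and 14.3% of all genes. On dpi 10 it was 4 lower and 0 higher (13.3% and 12.4%), and on dpi 42 it was 3 lower and 0 higher (7.76% and 9.15%). Cntnap2 fell from 158, 156 and 183 CPM to 59.8, 43.9 and 61.9 on dpi 2 (log2 -1.59, SE 0.25, q = 2.7e-05) and stood at 67.5, 78.4 and 73.8 CPM on dpi 42. Cntnap1 fell from 257, 275 and 275 CPM to 121, 99.5 and 120 on dpi 2 (log2 -1.25, SE 0.24) and stood at 148, 170 and 148 CPM on dpi 42 (log2 -0.79, q = 0.021). The dpi 42 call of Cntnap1 was lost with library sizes alone (-0.66, q = 0.073), with TMM against a total RNA library (-0.67, q = 0.0566), without naive pool 3 (-0.78, q = 0.050) and without total RNA library 2 or 3 of naive or library 1 or 3 of dpi 42 tissue (q = 0.0567 to 0.075), which each left 2 genes lower. Neuron markers in total RNA fell too, 6 of 7 on dpi 2, 7 of 7 on dpi 10 and 4 of 7 on dpi 42, and their summed level went from 10038 to 10737 CPM in naive tissue to 4303 to 5615 on dpi 2.

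Ank3 in total RNA fell from 417, 349 and 437 CPM to 201, 172 and 179 on dpi 2 (log2 -1.12, SE 0.13, q = 6.1e-07) and to 213, 250 and 225 on dpi 42. Cntn2 changed by -0.68 on dpi 2 and -0.58 on dpi 10. The dpi 10 value was inside the fold limit when only total RNA libraries were fitted (-0.44) or TMM used a total RNA library as reference (-0.43). It was also inside with only the groups compared in the fit (-0.43). With library sizes alone both days were inside the fold limit (-0.46 on dpi 2 and -0.40 on dpi 10). Gldn stood at 1.31, 1.29 and 2.35 CPM in naive total RNA and at 6.86, 14.4 and 5.11 on dpi 2 (log2 2.41, SE 0.73, q = 0.012). That call was lost without dpi 2 pool 2 (1.86, q = 0.080) and without naive total RNA library 1 (2.27) or library 2 (2.26). Without naive pool 3 Gldn was called higher on the 3 days.

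Cntn1 in total RNA went from 522, 506 and 522 CPM to 231, 204 and 276 by dpi 2, then stood at 309, 317 and 297 CPM (dpi 10) and at 312, 363 and 315 CPM (dpi 42), with no overlap. Because the fit shares 1 spread over OL and total RNA libraries, the dpi 2 change of -1.12 (SE 0.61) had q = 0.16. Fitted on the 12 total RNA libraries alone, Cntn1 was called lower on the 3 days (-0.96, -0.60 and -0.53, q of at most 0.000319), and Nrcam on dpi 10 (-0.57) and dpi 42 (-0.55). Nrcam in total RNA was 262, 246 and 270 CPM in naive libraries, lay above them at 288, 290 and 347 CPM (dpi 2) without a call, and stood at 170, 161 and 144 CPM (dpi 10) and 156, 173 and 162 CPM (dpi 42).

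Differential OL enrichment asked whether the OL change differed from the total RNA change. On dpi 2 Gldn alone was called (log2 3.68, SE 1.00, q = 0.029), that is 1 of 10 genes higher and 0 lower, beside 6.98% and 5.44% of all genes. On dpi 10 and dpi 42 edgeR called 0 of 10 genes in either direction, beside 4.17% higher and 2.94% lower of all genes on dpi 10, and 4.07% and 3.34% on dpi 42. DESeq2 called 2 genes higher on dpi 10, Gldn and Ank3, and Gldn on dpi 42. The Gldn call on dpi 2 was lost without dpi 2 pool 2 (3.98, q = 0.0519), without the tissue pool as a block (2.42, q = 0.133), and in 9 of the 24 fits that left out 1 library. Without naive pool 3 Gldn was called on the 3 days (6.24, 5.55 and 5.07). Cntn2 showed -0.30 (q = 0.29), 0.045 (q = 1.0) and -0.43 (q = 0.14), and Cntnap2 -0.24 (q = 0.78), 0.030 (q = 1.0) and 0.10 (q = 0.98).

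Other genes of the axon-glia contact were counted from lists, to be read beside the share of all genes tested. In OL libraries 16.4%, 5.55% and 13% of all genes were called lower and 15.9%, 8.55% and 13.7% higher at the successive days, with a median of 0. Of 10 genes of the node (channels and their scaffold), 7, 5 and 4 fell in OL libraries at the successive days, and 1 rose on each day, with medians of -1.07, -0.68 and -0.82. In total RNA 9, 9 and 6 of these 10 fell and 0 rose, with medians of -1.27, -1.11 and -0.77. Of all genes, 17%, 13.3% and 7.76% fell in total RNA. In naive tissue 9 of the 10 were lower and 1 higher in OL than in total RNA (median -3.75), beside 27.2% and 21.3% of all genes. The part of neuron RNA in the OL values of these genes was not tested. In OL libraries the sodium channel Scn1a fell from a mean of 19.3 to 5.41 CPM on dpi 2 (log2 -1.83, SE 0.22, q = 1.5e-06), and the potassium channel Kcnq3 from 179 to 72.9 CPM (log2 -1.29). Of 8 cytoskeletal genes of paranode and internode, 7, 4 and 7 fell and 0 rose (medians -0.97, -0.53 and -0.86). Among them, the myosin Myo1d fell by 1.55 on the log2 scale on dpi 2, the ankyrin Ank2 by 1.02 and the spectrin Sptbn1 by 0.98.

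Of 7 juxtaparanodal genes, 5, 1 and 4 fell in OL libraries and 0 rose (medians -0.91, -0.35 and -0.56), the 1 of 7 on dpi 10 being close to the share of all genes. The potassium channel Kcna1 fell from a mean of 80.7 to 23.4, 50.2 and 19.6 CPM (log2 -1.78, -0.68 and -2.04). Adam22 fell by 1.07 and Lgi3, a ligand of the Adam22 family, by 0.95 on dpi 2. In total RNA 7, 7 and 5 of the 7 genes fell, beside 17%, 13.3% and 7.76% of all genes. In naive tissue 5 of the 7 were lower and 1 higher in OL than in total RNA (median -3.15), beside 27.2% and 21.3% of all genes. Differential OL enrichment was called higher for 3, 4 and 2 of the 7, beside 6.98%, 4.17% and 4.07% of all genes. It was called lower for 0, 0 and 1, beside 5.44%, 2.94% and 3.34%. The part of neuron RNA in the OL values of these 7 genes was not tested. Of 11 genes of internodal adhesion and junctions, 4, 3 and 5 fell and 2, 2 and 1 rose (medians -0.31, -0.24 and -0.25), and nothing is read from those that rose beside the shares of all genes. On dpi 2 Ncam1 was at -1.50, Cadm2 at -1.41 and the tight junction scaffold Tjp1 at -0.85. Those that rose, named after their values were seen, were Chl1 (1.46) and the myelin claudin Cldn11 (1.32) on dpi 2, L1cam (0.78) and Cldn11 (0.51) on dpi 10 and Cadm3 (0.78) on dpi 42. Of 5 perinodal matrix genes 1, 0 and 0 fell and 0, 1 and 0 rose, namely the lectican Bcan on dpi 2 (-1.81) and tenascin R (Tnr) on dpi 10 (0.85), counts from which nothing is read beside the shares of all genes. Of 5 proteases that cut adhesion proteins, 4, 1 and 3 fell and 0, 1 and 0 rose (Mmp2 on dpi 10, 1.02), with medians of -0.56, -0.42 and -1.01, and nothing is read from the single calls on dpi 10. On the 3 days Adam10 stood at -0.53, -0.58 and -1.19, Adam17 at -0.56, -0.42 and -1.01, and Bace1 at -0.69, -0.27 and -0.58 (q = 0.25 on dpi 10 for Bace1). Adam17 in total RNA rose on the same days (1.07, 1.33 and 0.86).

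Among all genes with a mean of at least 1 CPM, the 3 genes whose log2 level over the 12 OL libraries was most like Cntn2 were Klhl4, Apbb1 and Arhgef10 (r of 0.98 to 0.99). For Cntn1 they were Slc4a4, Slc1a2 and Acot11 (r = 0.99), for Nrcam Ntn1, Ddah1 and Myo10 (0.97 to 0.98), and for Gldn C1qtnf1, Btg1 and Col5a3 (0.97 to 0.98). The closest genes were Slmap, Bzw1 and Khdrbs1 for Nfasc, Lrrc8d, Pde4dip and Synj1 for Ank3, and Ctnna2, Tmem263 and Cct2 for Jam3 (0.94 to 0.98). They were Nrde2, Ank1 and Rbfox3 for Cntnap1, Chn2, Csrnp3 and Rnf216 for Cntnap2, and Rtl8a, Diras1 and Fam213b for Cadm4 (0.93 to 0.97). Among the members, r was 0.91 between Cntn2 and Ank3, 0.88 between Cntn2 and Cntnap2, 0.72 between Nfasc and Jam3, 0.66 between Cntn1 and Nrcam, and -0.86 between Cntn2 and Gldn.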

How the data were processed

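The authors aligned the reads to mouse mm10 with STAR and deposited raw counts per gene (HTSeq 0.10.0 per the labels) for 24 libraries; the table gives no normalized values. Counts were analysed with edgeR 4.0.16 in R 4.3.3: genes with a summed count of at least 10 were kept, libraries were scaled with TMM, and quasi-likelihood F tests were run with Benjamini-Hochberg adjustment (q) over all 17167 genes. Changes were tested with 8 group means (16 residual df). OL enrichment and differential OL enrichment were tested with the 12 tissue pools as a block (8 residual df), since OL and total RNA came from the same tissue. Residuals of OL and total RNA correlated at a median r of 0.12 in the same tissue (12 pairs) and -0.049 in other tissue. On dpi 42, where titles and descriptions conflict, r was -0.053, 0.0066 and -0.0010 in the same tissue. In other tissue of dpi 42 it was -0.035 to 0.032, so these values do not tell the dpi 42 pairs apart. SE is the log2 fold change divided by the root of F. CPM are TMM-scaled, apart from the level of 3 counts, which uses library totals alone and covers counting error only. SD and SE include the spread between libraries. Replicate pairs differed beyond sampling noise (median chi-square per gene 2.51 to 21.1). The labels do not say that same-numbered libraries of different time points are related.

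Alternatives were other scalings, filters and fits, DESeq2 1.42.0, and leaving out each library or a pool, for which the other libraries kept their scaling factors. All 10 genes, list genes called in OL libraries (at most 3 a list, smallest p) and the OL reference genes Mbp, Mag and Mog were named, apart from items not reported here. The members, lists and tests were chosen with earlier results of these data known.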

Additional observations from a re-analysis of the deposited data

Results flagged for a closer look

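In OL libraries, dpi 42 differed from dpi 2 by a direct test in 3 genes: Nfasc by -0.56 on the log2 scale (q = 0.00044), Gldn by -2.31 (q = 0.029) and Jam3 by -0.52 (q = 0.018). The changes of both days use the same naive libraries, which cancel in this test. For Gldn, the OL change on dpi 2 also differed from the total RNA change, by 3.68 (q = 0.029), and this call was lost without both libraries of dpi 2 pool 2.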

How the results depend on the processing

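Of 140 results for the members, 65 were called, and no called result changed direction under any of the 36 alternatives. Leaving out naive pool 3, fitting only the total RNA libraries and TMM against a total RNA library were chosen after seeing the data. Library sizes alone shifted every OL change by 0.12 to 0.17 and every enrichment by -0.58 to -0.50 (log2), and TMM against a total RNA library shifted total RNA changes by 0.12 to 0.17, naive enrichment by 0.17 and differential enrichment by -0.19 to -0.11. Causes of the values given here were not tested beyond these shifts and the smaller number of samples or genes in a fit.
With library sizes alone, the members called were 2 higher for OL change on dpi 2, 2 lower for OL change on dpi 2, 2 higher for OL change on dpi 10, 1 lower for OL change on dpi 10 and 2 higher for OL change on dpi 42, and the sign turned for Jam3 OL change on dpi 42 (0.012), Nfasc total RNA change on dpi 2 (0.11), Jam3 total RNA change on dpi 42 (0.10), Gldn OL enrichment on dpi 42 (-0.27), Cntn1 differential enrichment on dpi 2 (-0.010), Cntn2 differential enrichment on dpi 10 (-0.020) and Cntnap2 differential enrichment on dpi 10 (-0.033). Without both libraries of naive pool 3, the members called were 2 higher for OL change on dpi 2, 2 higher for OL change on dpi 42, 1 higher for total RNA change on dpi 10, 1 higher for total RNA change on dpi 42, 1 higher for differential enrichment on dpi 10 and 1 higher for differential enrichment on dpi 42, and the sign turned for Cntn1 OL change on dpi 2 (0.13), Cntn1 OL change on dpi 10 (0.29), Nrcam OL change on dpi 10 (0.98), Cntn1 OL change on dpi 42 (0.87), Nrcam OL change on dpi 42 (1.61), Jam3 total RNA change on dpi 10 (-0.001), Cntn2 differential enrichment on dpi 10 (-0.044), Cntnap2 differential enrichment on dpi 10 (-0.28), Cntnap2 differential enrichment on dpi 42 (-0.20) and Ank3 differential enrichment on dpi 42 (-0.067). With only the groups compared in the fit, the members called were 0 higher for OL change on dpi 10, 1 higher for total RNA change on dpi 10, 1 higher for total RNA change on dpi 42, 5 lower for total RNA change on dpi 42 and 0 higher for differential enrichment on dpi 2, and the sign turned for Nfasc total RNA change on dpi 2 (0.004) and Jam3 total RNA change on dpi 42 (0.089). With DESeq2 size factors, the members called were 2 higher for OL change on dpi 42, and the sign turned for Jam3 total RNA change on dpi 42 (0.017). With the DESeq2 Wald test, the members called were 2 higher for OL change on dpi 42, 1 higher for total RNA change on dpi 10, 1 higher for OL dpi 42 against dpi 2, 2 higher for differential enrichment on dpi 10 and 1 higher for differential enrichment on dpi 42, and the sign turned for Jam3 total RNA change on dpi 42 (0.017). Without both libraries of dpi 2 pool 2, the members called were 0 higher for total RNA change on dpi 2, 1 lower for OL dpi 42 against dpi 2 and 0 higher for differential enrichment on dpi 2, and the sign turned for Cntnap1 OL dpi 42 against dpi 2 (-0.11). With only the total RNA libraries, the members called were 1 higher for total RNA change on dpi 10, 1 higher for total RNA change on dpi 42 and 5 lower for total RNA change on dpi 42, and the sign turned for Nfasc total RNA change on dpi 2 (0.055) and Jam3 total RNA change on dpi 42 (0.093). Without the tissue pool as a block, the members called were 0 higher for differential enrichment on dpi 2 and 1 higher for differential enrichment on dpi 10, and the sign turned for Cntn1 differential enrichment on dpi 2 (-0.25), Cntn1 differential enrichment on dpi 10 (-0.47) and Nrcam differential enrichment on dpi 10 (-0.16). With TMM against a total RNA library, the members called were 1 lower for differential enrichment on dpi 42, and the sign turned for Nfasc total RNA change on dpi 2 (0.052), Jam3 total RNA change on dpi 42 (0.099), Cntn1 differential enrichment on dpi 2 (-0.15), Cadm4 differential enrichment on dpi 2 (-0.091), Jam3 differential enrichment on dpi 2 (-0.026), Cntn1 differential enrichment on dpi 10 (-0.054), Cntn2 differential enrichment on dpi 10 (-0.068), Cntnap2 differential enrichment on dpi 10 (-0.082), Cntnap2 differential enrichment on dpi 42 (-0.039) and Ank3 differential enrichment on dpi 42 (-0.036). With a replicate block, the sign turned for Nrcam OL change on dpi 42 (0.13).

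Leaving out 1 library at a time gave these counts of members called: 1 to 2 higher for OL change on dpi 2, 1 to 3 lower for OL change on dpi 10, 1 to 2 higher for OL change on dpi 42, 0 to 1 higher for total RNA change on dpi 2, 0 to 1 higher for total RNA change on dpi 10, 0 to 1 higher for total RNA change on dpi 42, 0 to 1 higher for OL dpi 42 against dpi 2, 1 to 3 lower for OL dpi 42 against dpi 2, 2 to 5 lower for OL enrichment in naive tissue, 2 to 4 lower for OL enrichment on dpi 42, 0 to 1 higher for differential enrichment on dpi 2, 0 to 1 higher for differential enrichment on dpi 10 and 0 to 1 higher for differential enrichment on dpi 42. Signs turned for uncalled results, with ranges of -2.40 to 0.13 (Cntn1 OL change on dpi 2), -0.10 to 2.87 (Nrcam OL change on dpi 2), -1.75 to 0.29 (Cntn1 OL change on dpi 10), -1.32 to 0.98 (Nrcam OL change on dpi 10), -1.04 to 0.87 (Cntn1 OL change on dpi 42), -0.69 to 1.61 (Nrcam OL change on dpi 42), -0.001 to 0.15 (Jam3 total RNA change on dpi 10), -0.096 to 0.055 (Jam3 total RNA change on dpi 42), -0.11 to 0.80 (Cntnap1 OL dpi 42 against dpi 2), -0.20 to 0.021 (Ank3 OL dpi 42 against dpi 2), -0.049 to 0.75 (Gldn OL enrichment on dpi 42), -0.53 to 0.89 (Cntn1 differential enrichment on dpi 2), -0.14 to 0.62 (Cntnap1 differential enrichment on dpi 2), -0.45 to 0.90 (Cntn1 differential enrichment on dpi 10), -0.044 to 0.14 (Cntn2 differential enrichment on dpi 10), -0.28 to 0.23 (Cntnap2 differential enrichment on dpi 10), -0.061 to 1.57 (Nrcam differential enrichment on dpi 10), -0.026 to 1.33 (Cntn1 differential enrichment on dpi 42), -0.032 to 0.33 (Cntnap1 differential enrichment on dpi 42), -0.20 to 0.35 (Cntnap2 differential enrichment on dpi 42), -0.067 to 0.27 (Ank3 differential enrichment on dpi 42) and -0.22 to 0.008 (Jam3 differential enrichment on dpi 42).

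Replicate numbers pair nothing across time points (r of same-numbered OL libraries -0.38 to 0.33, 9 pairs), and a replicate block changed no count of calls. At 3 counts, Gldn in naive OL libraries 1 and 2 was under the detection limit.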
